A study of Homo sapiens with 12 samples.

Results

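The genes described here are those of glycolysis and of the response to low oxygen, 40 in all, of which 21 encode glycolytic enzymes, regulators and sugar or lactate transporters and 19 are other genes linked to the hypoxia-inducible factors (HIF). They were listed by name for their known function, with earlier results of these data already known, and 38 of them were measured by at least 1 probe set that names the gene alone, 20 in the glycolytic group and 18 in the other, out of 19775 genes of the table. SLC16A3 and CA9 were not analysed here. The groups were KMS-11/Cfz and KMS-34/Cfz, carfilzomib-resistant derivatives of human multiple myeloma (MM) lines that had been selected in 12 nM of the drug and then grown for 1 week without it, and the unselected parental lines KMS-11 and KMS-34. Carfilzomib inhibits the proteasome, the protease complex that degrades ubiquitin-tagged proteins. All 4 groups were cultured alike in RPMI 1640 with GlutaMAX, with 4% fetal bovine serum per the labels and a higher percentage per the methods of the paper, and whether a derivative is 1 clone or a pool is not given in the sources used here. RNA of 3 replicates of each group was measured on 12 Affymetrix U133 Plus 2.0 arrays, and the sources do not say if each replicate was its own culture, so p-values here measure the spread between these samples, which may be technical.

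Glycolysis splits glucose into pyruvate, which enters the mitochondria or is reduced to lactate, and it lets a cell make ATP without oxygen. HIF-1 alpha and HIF-2 alpha, encoded by HIF1A and EPAS1, are hydroxylated by the EGLN enzymes when oxygen is present and are then destroyed by the proteasome through the VHL ubiquitin ligase. When oxygen is low they persist, pair with ARNT and bind a short core motif, ACGTG or GCGTG, in front of genes for glucose transport, glycolysis, blood vessel growth and removal of mitochondria.

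That motif was looked for in the 250 bases before the RefSeq transcription start (GRCh38.p14), on both strands. Of the 33 measured members with such a window, 28 held ACGTG or GCGTG in at least 1 window (84.8%), against 47.4% of 27305 genes with windows of the same length. Genes with several starts have more windows and so more chances. Of those with 1 window only, 15 of 20 members held it (75.0%), against 42.2% of 22114 genes. ACGTG alone was found in 60.6% of members and 21.7% of all genes, GCGTG in 57.6% and 36.2%, and the E-box CACGTG, which contains ACGTG, in 27.3% and 7.73%. A match is a description of the letters and not a bound site. The members were listed for known links to glycolysis or HIF, so their higher shares are not a result of these data. The windows of 4 members named in the results below are printed 5′ to 3′ with the matches on either strand in capitals. Only members with 1 window were considered, so PDK1, with a match in 1 of its 2 windows, is not shown. ALDOC, EGLN1 and PFKFB4 fell in the mean of both lines, and BNIP3 had the largest difference between the lines. All 4 lie on the minus strand, at chr17:28576896-28577145, chr1:231422288-231422537, chr3:48556804-48557053 and chr10:131981924-131982173.
ALDOC: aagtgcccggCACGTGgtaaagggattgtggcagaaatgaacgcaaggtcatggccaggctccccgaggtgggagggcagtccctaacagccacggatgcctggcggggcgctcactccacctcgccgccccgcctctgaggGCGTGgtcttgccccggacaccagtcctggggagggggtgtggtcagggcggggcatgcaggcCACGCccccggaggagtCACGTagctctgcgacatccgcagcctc
EGLN1: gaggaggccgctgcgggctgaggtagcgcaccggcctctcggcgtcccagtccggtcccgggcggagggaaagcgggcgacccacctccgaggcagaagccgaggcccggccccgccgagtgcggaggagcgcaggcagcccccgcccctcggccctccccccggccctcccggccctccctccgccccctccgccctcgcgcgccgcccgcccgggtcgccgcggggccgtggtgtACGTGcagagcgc
PFKFB4: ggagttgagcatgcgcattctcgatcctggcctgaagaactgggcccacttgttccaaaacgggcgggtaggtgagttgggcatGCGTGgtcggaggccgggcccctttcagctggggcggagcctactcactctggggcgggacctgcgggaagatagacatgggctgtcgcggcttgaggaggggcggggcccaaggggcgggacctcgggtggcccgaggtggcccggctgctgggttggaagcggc
BNIP3: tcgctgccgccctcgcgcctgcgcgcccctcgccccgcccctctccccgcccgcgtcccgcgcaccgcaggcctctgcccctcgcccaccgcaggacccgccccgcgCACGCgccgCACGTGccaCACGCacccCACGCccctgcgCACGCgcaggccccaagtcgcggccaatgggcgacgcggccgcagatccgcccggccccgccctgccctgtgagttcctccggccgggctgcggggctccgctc
BNIP3 held 6 matches and ALDOC 5, with 1 CACGTG in each, which counts once per strand. EGLN1 and PFKFB4 held 1 match each. PGAM1 and P4HA2, which fell in the mean of both lines too, held no match in their windows.

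Values of the deposited table are log2 values in which every probe set is centred on a constant, so a value gives a difference between arrays and never an expression level. Members can therefore not be ranked by level, and markers of a cell type cannot be read as present or absent. The value of a gene is the mean of its probe sets, and a change is the log2 fold change of resistant over parental cells of 1 line, fitted with limma over all 12 arrays and all 19775 genes. "Rose" and "fell" are used for genes with a two-sided p under 0.05 after Benjamini-Hochberg adjustment across the whole table. Pearson's r between arrays was 0.759 to 0.949 within groups and 0.711 to 0.904 for resistant against parental arrays of 1 line, and KMS-34/Cfz replicate 1 was the least like its own group (0.759 to 0.811). Of 8 plasma cell markers, 0 rose and 2 fell in KMS-11/Cfz (MZB1 and SLAMF7), while in KMS-34/Cfz 0 rose and 3 fell (PRDM1, IRF4 and SLAMF7). CD38, another of them, lay higher on all resistant arrays in both lines without passing in either (0.44 ± 0.13 and 0.34 ± 0.13, adjusted p = 0.0802 and 0.114), and it rose in the mean of both lines (0.39 ± 0.09, adjusted p = 0.0156). Among 23 measured markers of monocytes, stromal cells, erythroid cells and T or NK cells, 0 changed in KMS-11/Cfz, while 2 fell in KMS-34/Cfz (CD14 and HBB).

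In KMS-11/Cfz cells, 3 of the 38 members fell and 0 rose, against 1.94% of all genes that fell and 1.63% that rose. They were ALDOC, the aldolase of brain and nerve, PDK1, a kinase that inhibits pyruvate dehydrogenase, and EGLN1, the main oxygen sensor among the HIF prolyl hydroxylases. In KMS-34/Cfz cells, 5 members fell and 1 rose, against 4.69% and 5.4% of all genes. ALDOC and PDK1 fell there too, together with PFKM, the muscle form of phosphofructokinase, PFKFB4, which sets the level of an activator of phosphofructokinase, and AK4, a mitochondrial adenylate kinase, while NDRG1, a stress-induced gene, rose. The core enzymes GAPDH, ENO1, PKM, PGK1, TPI1 and ALDOA passed in neither line.

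**Figure D1:**
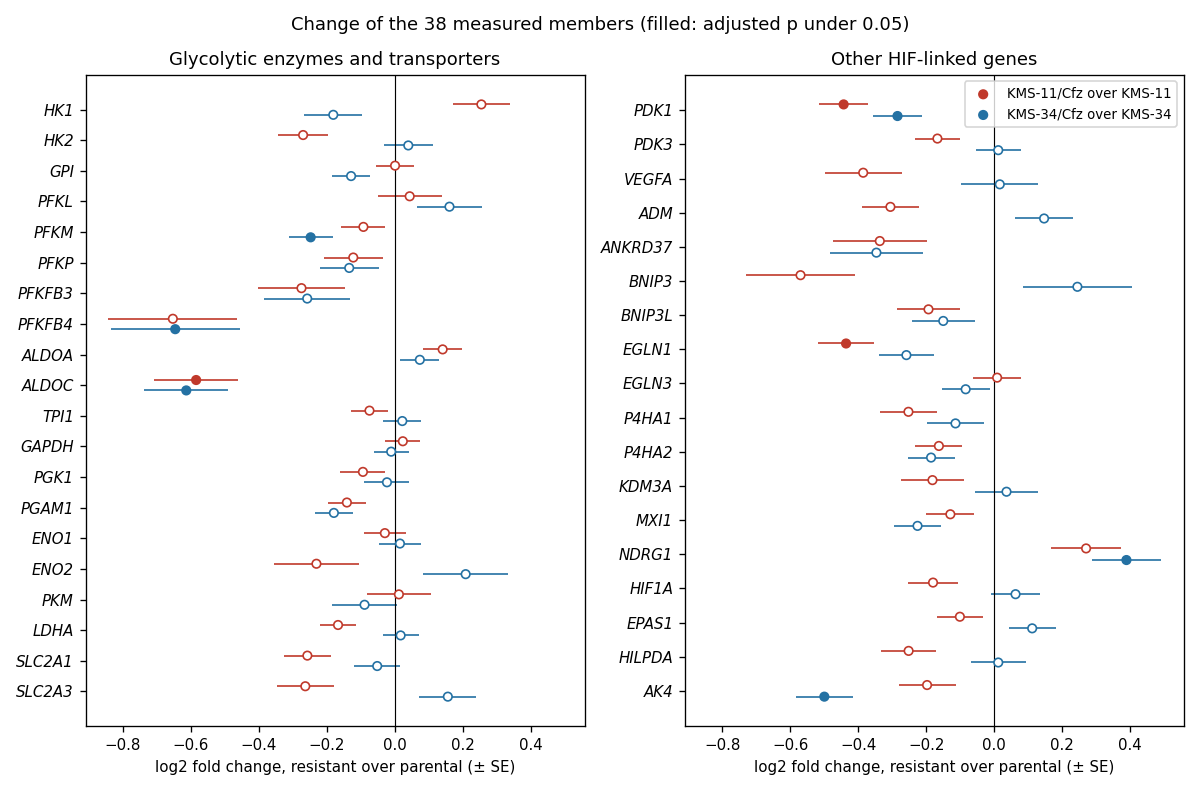
Change of each measured member on the log2 scale with its standard error, resistant over parental cells, in KMS-11 (red) and KMS-34 (blue), with glycolytic genes on the left and other HIF-linked genes on the right, and filled points for an adjusted p under 0.05. In KMS-11/Cfz 31 of 38 members lie below 0, in KMS-34/Cfz 21 of 38.

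The sugar enters through SLC2A1 (GLUT1) and SLC2A3 (GLUT3). SLC2A1 differed by -0.26 ± 0.07 (SE) in KMS-11/Cfz, just outside the threshold (adjusted p = 0.0567), and by -0.05 ± 0.07 in KMS-34/Cfz (95% interval -0.20 to 0.09). SLC2A3 differed by -0.26 ± 0.08 (adjusted p = 0.128) and by 0.16 ± 0.08 (adjusted p = 0.325). A further 2 probe sets that cannot tell SLC2A3 from SLC2A14 were left out of its value, and neither of them passed in either line.

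Among the first steps, hexokinase HK2 was lower on all 3 KMS-11/Cfz arrays (-0.39, -0.41 and -0.49) than on the KMS-11 arrays (-0.13, -0.14 and -0.21), a change of -0.27 ± 0.07 that missed the threshold (adjusted p = 0.0621). In KMS-34/Cfz it differed by 0.04 ± 0.07, which averages probe sets of opposite sign (-0.33 ± 0.10 on 202934_at, 0.22 ± 0.09 on 222305_at and 0.23 ± 0.10 on 239410_at), none of which passed. On 202934_at every resistant array lay below the parental ones in both lines, and the mean change was -0.34 ± 0.07 (adjusted p = 0.00859 over all probe sets). HK1, the hexokinase of most tissues, differed by 0.25 ± 0.08 in KMS-11/Cfz (adjusted p = 0.15) and by -0.18 ± 0.08 in KMS-34/Cfz (adjusted p = 0.233). PFKM, which commits sugar to glycolysis, gave 0.08, 0.22 and 0.23 on the KMS-34/Cfz arrays and 0.35, 0.47 and 0.46 on the KMS-34 arrays. The groups did not overlap, and PFKM fell by 0.25 ± 0.06 (0.842-fold, adjusted p = 0.0263). In KMS-11/Cfz the values were -0.12, -0.00 and -0.07, against 0.00, 0.07 and 0.02 in KMS-11, a change of -0.09 ± 0.06 (adjusted p = 0.651). The PFKM call depended on 4 arrays and ended when replicate 1 or 2 of KMS-34/Cfz, or replicate 2 or 3 of KMS-34, was left out, with adjusted p up to 0.0835. With the line fitted alone it was 0.174.

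The 2 regulators of phosphofructokinase among the members, PFKFB3 and PFKFB4, had changes below 0 in both lines. PFKFB1 and PFKFB2 were measured too but are not members, and neither passed in either line. PFKFB2 changed by -0.05 ± 0.07 in KMS-11/Cfz cells, against 0.03 ± 0.07 in KMS-34/Cfz cells. For PFKFB1 the changes were -0.017 ± 0.096 and -0.004 ± 0.096. PFKFB4 was -0.88, -0.32 and -0.16 on the KMS-11/Cfz arrays and 0.13, 0.08 and 0.39 on the KMS-11 arrays, so that every resistant array lay below every parental one. The change was -0.65 ± 0.19, which did not pass (adjusted p = 0.0869). In KMS-34 the arrays read -0.64, -0.75 and -0.44 in resistant cells and -0.00, -0.31 and 0.42 in parental cells, again without overlap, and PFKFB4 fell by 0.65 ± 0.19 (0.639-fold, adjusted p = 0.0469). Its standard error was the largest of the 38 members, and the KMS-34/Cfz call was lost in 8 of the 12 fits that left out 1 array (all but those without KMS-11/Cfz replicate 1 or 3, KMS-11 replicate 3 or KMS-34 replicate 2), with adjusted p up to 0.195 and a change of -0.45 without KMS-34 replicate 3. PFKFB3, its counterpart with high kinase activity, differed by -0.28 ± 0.13 in KMS-11/Cfz and by -0.26 ± 0.13 in KMS-34/Cfz (adjusted p = 0.368 and 0.265).

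ALDOC was the one glycolytic member that passed in both lines. Its values were -1.45, -0.95 and -1.01 on the KMS-11/Cfz arrays, against -0.74, -0.49 and -0.43 on the KMS-11 arrays. In KMS-34/Cfz they were -0.41, -0.41 and -0.19, against 0.19, 0.26 and 0.38 in KMS-34. Resistant and parental arrays did not overlap in either line. ALDOC fell by 0.59 ± 0.12 in KMS-11/Cfz (0.667-fold, adjusted p = 0.0182) and by 0.61 ± 0.12 in KMS-34/Cfz (0.653-fold, adjusted p = 0.00624). The KMS-34/Cfz call was kept whichever array was left out. The KMS-11/Cfz call was lost without KMS-11/Cfz replicate 1, KMS-11 replicate 2 or KMS-11 replicate 3 (adjusted p up to 0.0836). ALDOA, the aldolase of muscle and most other cells, did not share the direction, with 0.14 ± 0.06 in KMS-11/Cfz cells and 0.07 ± 0.06 in KMS-34/Cfz (adjusted p = 0.276 and 0.549).

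No gene of the lower part of the pathway passed in either line. GAPDH differed by 0.02 ± 0.05 in KMS-11/Cfz (95% interval -0.09 to 0.13) and by -0.01 ± 0.05 in KMS-34/Cfz (-0.12 to 0.10). ENO1, the main enolase, differed by -0.03 ± 0.06 and 0.01 ± 0.06, and PKM, the pyruvate kinase of proliferating cells, by 0.01 ± 0.09 and -0.09 ± 0.09. PGAM1, phosphoglycerate mutase, lay lower on every resistant array in both lines but did not pass (a change of -0.14 ± 0.06 with adjusted p = 0.258 in KMS-11/Cfz cells, and of -0.18 ± 0.06 with adjusted p = 0.0619 in KMS-34/Cfz cells). LDHA, which turns pyruvate into lactate, read -0.25, -0.26 and -0.21 on the KMS-11/Cfz arrays, against -0.11, -0.06 and -0.04 on the KMS-11 arrays. That is a change of -0.17 ± 0.05 without overlap that did not pass (adjusted p = 0.127). In KMS-34/Cfz LDHA read 0.05, 0.04 and -0.00, against 0.00, 0.02 and 0.02 in KMS-34, which is 0.02 ± 0.05 (95% interval -0.10 to 0.13).

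**Figure D2:**
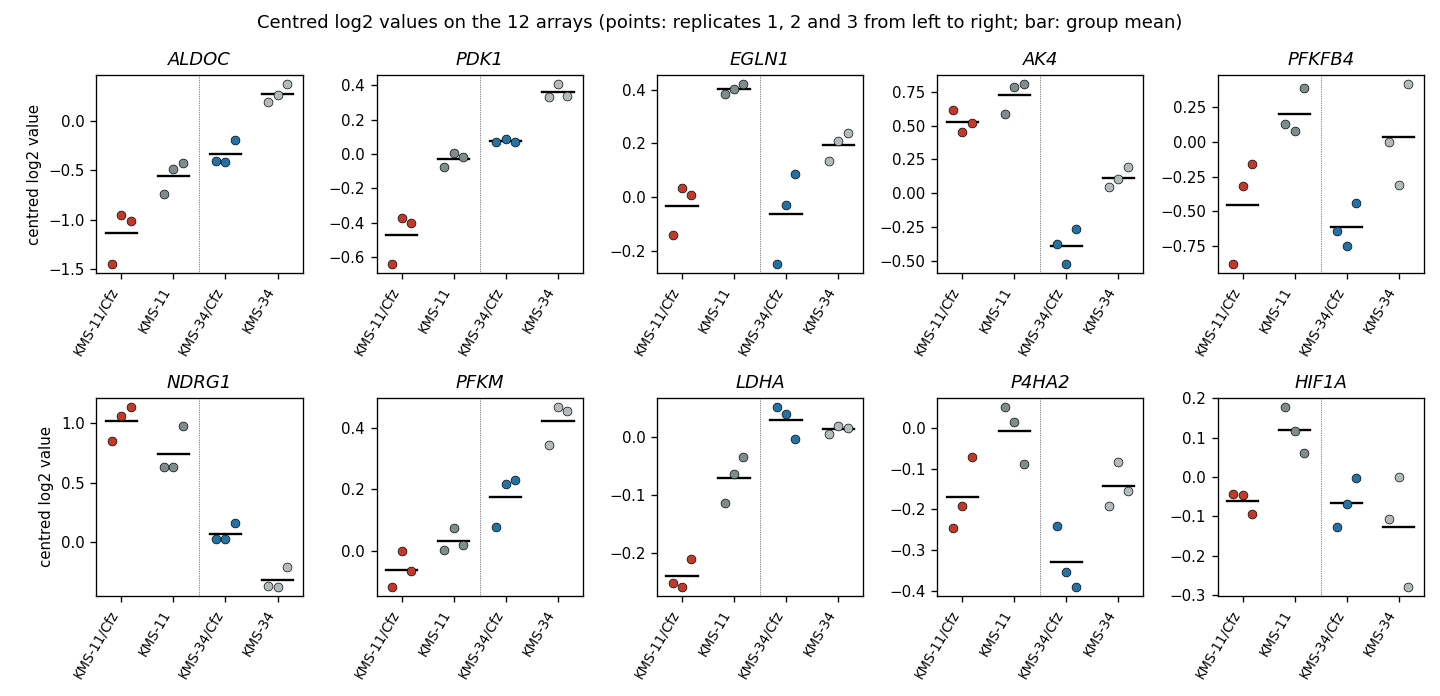
Centred log2 values of 10 members on the 12 arrays, with replicates 1, 2 and 3 from left to right in each group and a bar at the group mean; the vertical scales differ between panels. ALDOC, PDK1, EGLN1, PFKFB4 and PFKM have no overlap between resistant and parental arrays in either line, though PFKM only barely so in KMS-11. LDHA and HIF1A are separated in KMS-11 only.

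PDK1, which phosphorylates and inhibits pyruvate dehydrogenase, passed in both lines. Its values were -0.64, -0.37 and -0.40 in KMS-11/Cfz cells and -0.08, 0.01 and -0.02 in KMS-11 cells. In KMS-34/Cfz cells they were 0.07, 0.09 and 0.07, against 0.33, 0.41 and 0.34 in KMS-34 cells. PDK1 fell by 0.44 ± 0.07 in KMS-11/Cfz (0.736-fold, adjusted p = 0.00314), with adjusted p from 0.00253 to 0.0212 when each array was left out. It fell by 0.28 ± 0.07 in KMS-34/Cfz (0.821-fold, adjusted p = 0.0208), a call lost when replicate 2 or 3 of KMS-34/Cfz, or replicate 2 of KMS-34, was left out (adjusted p up to 0.0679), or with the line fitted alone (adjusted p = 0.0806). PDK3, a kinase of the same family, differed by -0.17 ± 0.07 and 0.01 ± 0.07 (adjusted p = 0.258 and 0.964).

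The factors themselves did not pass. HIF1A read -0.04, -0.05 and -0.09 in KMS-11/Cfz, against 0.18, 0.12 and 0.06 in KMS-11, a change of -0.18 ± 0.07 (adjusted p = 0.274). In KMS-34/Cfz it read -0.13, -0.07 and -0.00, against -0.11, 0.00 and -0.28 in KMS-34, a change of 0.06 ± 0.07 (adjusted p = 0.735). EPAS1 differed by -0.10 ± 0.07 and 0.11 ± 0.07 (adjusted p = 0.635 and 0.406). These are amounts of RNA, whereas the factors are controlled mainly through protein stability.

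Of the HIF prolyl hydroxylases, EGLN1 (PHD2) was -0.14, 0.03 and 0.01 on the KMS-11/Cfz arrays and 0.39, 0.40 and 0.42 on the KMS-11 arrays. EGLN1 fell by 0.44 ± 0.08 (0.739-fold, adjusted p = 0.00906), a call that ended without KMS-11/Cfz replicate 1 (adjusted p = 0.0598). In KMS-34/Cfz it read -0.25, -0.03 and 0.09, against 0.13, 0.21 and 0.24 in KMS-34, lower without overlap by a change of -0.26 ± 0.08 that missed the threshold (adjusted p = 0.065). EGLN3 (PHD3), a hydroxylase strongly induced by low oxygen in many cells, differed by 0.01 ± 0.07 and -0.08 ± 0.07.

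AK4 was the member with the smallest adjusted p in KMS-34/Cfz. It read -0.37, -0.52 and -0.26 in KMS-34/Cfz, against 0.04, 0.10 and 0.19 in KMS-34, and fell by 0.50 ± 0.08 (0.707-fold, adjusted p = 0.00183, at most 0.0115 with any 1 array left out). In KMS-11/Cfz the values 0.62, 0.45 and 0.52 overlapped with 0.59, 0.78 and 0.81 in KMS-11, a change of -0.20 ± 0.08 (adjusted p = 0.305). NDRG1 read 0.03, 0.03 and 0.16 in KMS-34/Cfz, against -0.37, -0.37 and -0.21 in KMS-34, and rose by 0.39 ± 0.10 (1.31-fold, adjusted p = 0.0268). That call was lost when replicate 2 or 3 of KMS-34/Cfz, or replicate 1 or 2 of KMS-34, was left out (adjusted p up to 0.0912). In KMS-11/Cfz it read 0.85, 1.06 and 1.14, against 0.63, 0.63 and 0.98 in KMS-11, with overlap, a change of 0.27 ± 0.10 (adjusted p = 0.222). NDRG1 is also a gene of distal 8q24, and whether its location bears on this change was not tested.

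BNIP3 and BNIP3L, receptors that mark mitochondria for autophagy, and the secreted factors VEGFA, which drives vessel growth, and ADM, a vasodilator peptide, passed in neither line. In KMS-11/Cfz, BNIP3 differed by -0.57 ± 0.16 (adjusted p = 0.0751), VEGFA by -0.39 ± 0.11 (adjusted p = 0.0896) and ADM by -0.31 ± 0.08 (adjusted p = 0.0712), and in all 3 genes the resistant arrays were lower than every parental array. In KMS-34/Cfz the same genes differed by 0.24 ± 0.16, 0.02 ± 0.11 and 0.15 ± 0.08, with overlapping arrays. Among the rest, HILPDA, a lipid droplet protein, differed by -0.25 ± 0.08 in KMS-11/Cfz cells and 0.01 ± 0.08 in KMS-34/Cfz, and MXI1, an antagonist of MYC, by -0.13 ± 0.07 and -0.23 ± 0.07. The 19 glycolytic members that did not pass in KMS-11/Cfz ranged from -0.65 (PFKFB4) to 0.25 (HK1) and the 16 others from -0.57 (BNIP3) to 0.27 (NDRG1). In KMS-34/Cfz the corresponding ranges were -0.26 (PFKFB3) to 0.21 (ENO2) over 17 genes and -0.35 (ANKRD37) to 0.24 (BNIP3) over 15 genes.

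As groups, the members leaned downward in KMS-11/Cfz. Their median change was -0.17, with 31 of 38 below 0 (81.6%), against a median of 0.002 and 49% of genes below 0 over the whole table. The glycolytic genes had a median of -0.11 (15 of 20 below 0) and the other HIF-linked genes one of -0.20 (16 of 18 below 0). In KMS-34/Cfz the medians were -0.04 for both groups (12 of 20 and 9 of 18 below 0), against -0.01 and 53.6% over all genes. Cyclic loess scaling of the arrays left 26 of 38 members and 13 of 18 HIF-linked genes below 0 in KMS-11/Cfz. That scaling fits against an average that is no expression level for centred values, so it is a weak check here. It also turned the split of all called genes to 568 higher and 291 lower in KMS-11/Cfz, against 322 and 384 as reported, and to 970 and 1098 in KMS-34/Cfz, against 1068 and 928.

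Counted by arrays alone, 18 members in KMS-11/Cfz had all 3 resistant values below all 3 parental ones and 2 had them above, against 13.7% and 13.1% of all genes. In KMS-34/Cfz 12 members lay below and 1 above, against 10.5% and 10.2% of all genes. In both lines at once, 7 of 38 members lay below (18.4%), namely PFKM, PFKFB4, ALDOC, PGAM1, PDK1, EGLN1 and MXI1, and 0 lay above, against 2.37% and 1.98% of all genes. For PFKM the margin in KMS-11 was very small, with -0.000966 as the highest resistant value and 0.000965 as the lowest parental one. An exact permutation test of 3 against 3 arrays cannot give a p under 0.1. Many members share a regulator, so that these are not counts of independent genes.

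Averaged over both lines, 10 members fell and 1 rose, against 3.86% and 3.99% of all genes. The 4 glycolytic members that fell were PFKFB4 (-0.65 ± 0.13), ALDOC (-0.60 ± 0.09), PFKM (-0.17 ± 0.05) and PGAM1 (-0.16 ± 0.04). The 6 others were PDK1 (-0.36 ± 0.05), AK4 (-0.35 ± 0.06), EGLN1 (-0.35 ± 0.06), ANKRD37 (-0.34 ± 0.10), MXI1 (-0.18 ± 0.05) and P4HA2 (-0.17 ± 0.05), and NDRG1 rose (0.33 ± 0.07). ANKRD37, MXI1, P4HA2 and PFKM stood closest to the threshold, with adjusted p from 0.0373 to 0.0485. The number that passed was 6 to 11 when each array was left out.

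Since the value of a gene averages its probe sets, 87 member probe sets were also tested singly among 54613. Of these, 10 fell and 0 rose in KMS-11/Cfz, against 1.02% and 0.729% of all probe sets, and 8 fell and 2 rose in KMS-34/Cfz, against 3.18% and 3.87%. P4HA2, a collagen prolyl 4-hydroxylase, gave -0.25, -0.19 and -0.07 as a gene in KMS-11/Cfz, against 0.05, 0.01 and -0.09 in KMS-11, and -0.24, -0.35 and -0.39 in KMS-34/Cfz, against -0.19, -0.08 and -0.15 in KMS-34. Neither change passed (-0.16 ± 0.07, adjusted p = 0.306, and -0.19 ± 0.07, adjusted p = 0.121). Its probe set 202733_at alone read -0.51, -0.25 and -0.33, against 0.03, 0.27 and 0.14 in KMS-11, and -0.92, -0.90 and -0.76 in KMS-34/Cfz, against -0.26, -0.03 and -0.24 in KMS-34. It fell by 0.51 ± 0.10 (adjusted p = 0.0132) and 0.68 ± 0.10 (adjusted p = 0.000741), while the other 2 probe sets lay between -0.10 and 0.12.

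The same held for other members whose probe sets differed. P4HA1, the related hydroxylase, fell by 0.70 ± 0.11 in KMS-11/Cfz on probe set 207543_s_at (adjusted p = 0.00372), and 243335_at gave 0.20 ± 0.10. ANKRD37, an ankyrin repeat protein, fell by 0.66 ± 0.14 in KMS-11/Cfz cells and 0.53 ± 0.14 in KMS-34/Cfz on 227337_at (adjusted p = 0.025 and 0.034) and gave -0.01 and -0.17 on 242548_x_at. AK4 fell by 0.91 ± 0.12 and 0.78 ± 0.14 in KMS-34/Cfz on 225342_at and 204348_s_at, and its other 2 probe sets gave -0.17 and -0.14. EPAS1 rose by 0.45 ± 0.11 in KMS-34/Cfz on 200878_at (adjusted p = 0.0218), with 0.04 and -0.15 on the others. SLC2A1 fell by 0.40 ± 0.09 in KMS-11/Cfz on 201250_s_at (adjusted p = 0.0406), against -0.11 ± 0.10 on 201249_at.

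In EGLN1 and PDK1 more than 1 probe set passed in KMS-11/Cfz, and all changes were below 0. For EGLN1, 3 of 4 probe sets fell in KMS-11/Cfz, by 0.47 to 0.60, and 1 of them, 221497_x_at, also fell in KMS-34/Cfz (by 0.34 ± 0.08). For PDK1, 2 of 3 fell in KMS-11/Cfz (by 0.52 and 0.59) and 1 of these, 206686_at, in KMS-34/Cfz (by 0.45 ± 0.11). Of the 87 probe sets, 29 end in _s_at and 15 in _x_at, whose probes can match related transcripts, and glycolytic genes such as GAPDH, PGK1 and LDHA have many processed pseudogenes, so that a value may include other RNAs. Both kinds were then left out of genes that had another kind of probe set. ALDOC and PDK1 remained among the calls in KMS-11/Cfz and EGLN1 did not (adjusted p = 0.161). The EGLN1 probe sets that remained differed in KMS-11/Cfz. When tested singly, 223046_at fell by 0.47 ± 0.07 (adjusted p = 0.00352) and 223045_at gave -0.14 ± 0.18 (adjusted p = 0.894). All 6 calls in KMS-34/Cfz were kept. Genes with only such probe sets, among them GAPDH, LDHA, PFKM and NDRG1, kept them, so this could not test those genes.

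**Figure D3:**
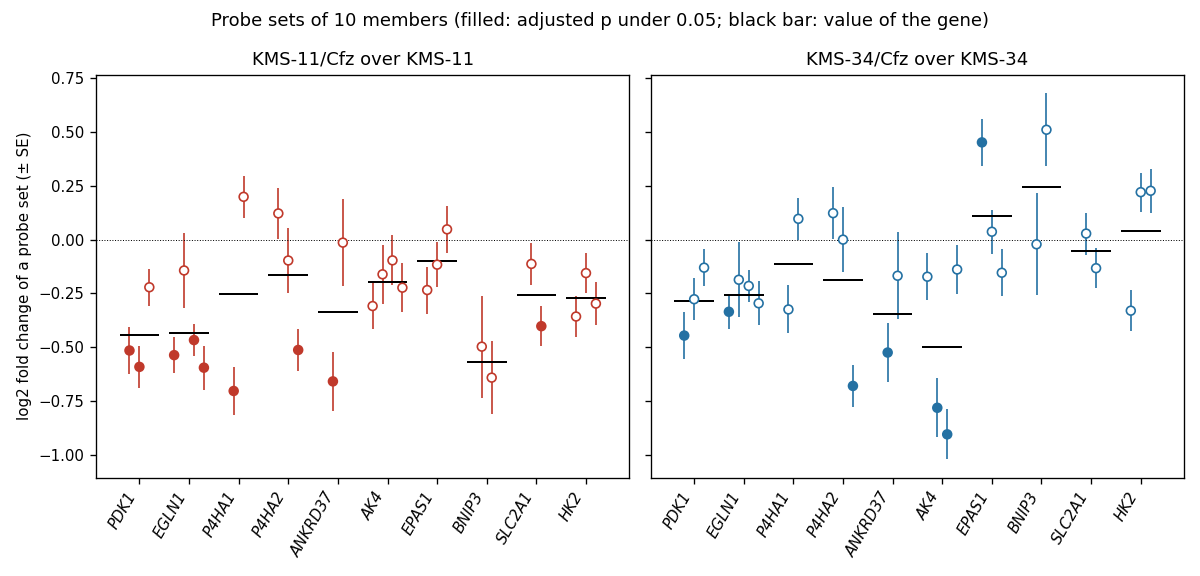
Change of each probe set of 10 members with its standard error, KMS-11/Cfz over KMS-11 on the left and KMS-34/Cfz over KMS-34 on the right, with filled points for an adjusted p under 0.05 over all probe sets and a black bar at the value of the gene. In P4HA2, P4HA1 and ANKRD37, 1 probe set lies far below the others.

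Whether a change differed between the lines was tested as the KMS-34 change minus the KMS-11 change. It differed for 3 of 38 members, with 2 higher and 1 lower in KMS-34, against 3.7% and 2.74% of all genes. BNIP3 gave 0.81 ± 0.23 (adjusted p = 0.0494), ADM 0.45 ± 0.12 (adjusted p = 0.0404) and HK1 -0.44 ± 0.12 (adjusted p = 0.0474). Each of these calls ended in 9 or 10 of the 12 fits with 1 array left out. SLC2A3 came next (0.42 ± 0.12, adjusted p = 0.0537). The 2 probe sets of BNIP3 changed by -0.02 ± 0.24 and 0.51 ± 0.17 in KMS-34/Cfz. Its parental signal there was 0.0264-fold that of KMS-11, so its changes in the lines start from unlike signals. For ALDOC the difference was -0.03 (95% interval -0.41 to 0.35) and for PFKFB4 0.01 (-0.57 to 0.59). Among probe sets, 225342_at of AK4 differed by -0.81 (adjusted p = 0.0134), 201849_at of BNIP3 by 1.15 (adjusted p = 0.016) and 200878_at of EPAS1 by 0.69 (adjusted p = 0.0236). The other probe sets of these genes did not pass, with -0.62, 0.14 and 0.08 for AK4, 0.48 for BNIP3, and 0.15 and -0.20 for EPAS1. How many of all probe sets passed this test was not counted.

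More members differed between the parental lines than between resistant and parental cells. KMS-34 cells differed from KMS-11 cells in 27 of 38 members, with 9 higher and 18 lower, against 21.6% and 20.5% of all genes. BNIP3 stood out, with -5.02, -5.26 and -4.68 on the KMS-34 arrays, against 0.17, 0.24 and 0.36 on the KMS-11 arrays, a change of -5.24 ± 0.16 (0.0264-fold, adjusted p = 7.41e-12). Both of its probe sets showed it (-4.45 and -6.04), and the values in KMS-34/Cfz (-4.40, -5.02 and -4.81) overlapped with those in KMS-34. BNIP3L, its relative, was lower by a log2 change of -1.23 ± 0.09. Glucose transporter SLC2A3 (-1.50 ± 0.08), the neuronal enolase ENO2 (-1.25 ± 0.12), NDRG1 (-1.06 ± 0.10) and PFKFB3 (-0.80 ± 0.13) were also lower in KMS-34.

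Higher in KMS-34 were GPI, which isomerizes glucose 6-phosphate (0.85 ± 0.06), HK1 (0.84 ± 0.08), ALDOC (0.83 ± 0.12), PGAM1 (0.46 ± 0.06), PFKM (0.39 ± 0.06), P4HA1 (0.39 ± 0.08), PDK1 (0.39 ± 0.07), TPI1 (0.28 ± 0.06) and HILPDA (0.22 ± 0.08). The forms of 1 enzyme thus went opposite ways, with PFKM higher and PFKL and PFKP lower in KMS-34 (-0.53 ± 0.09 and -0.58 ± 0.09). ALDOC in KMS-34/Cfz, at -0.41 to -0.19, remained above its KMS-11 values, at -0.74 to -0.43. Of the 11 members that did not differ, LDHA gave 0.08 ± 0.05, SLC2A1 -0.12 ± 0.07 and PFKFB4 -0.16 ± 0.19.

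**Figure D4:**
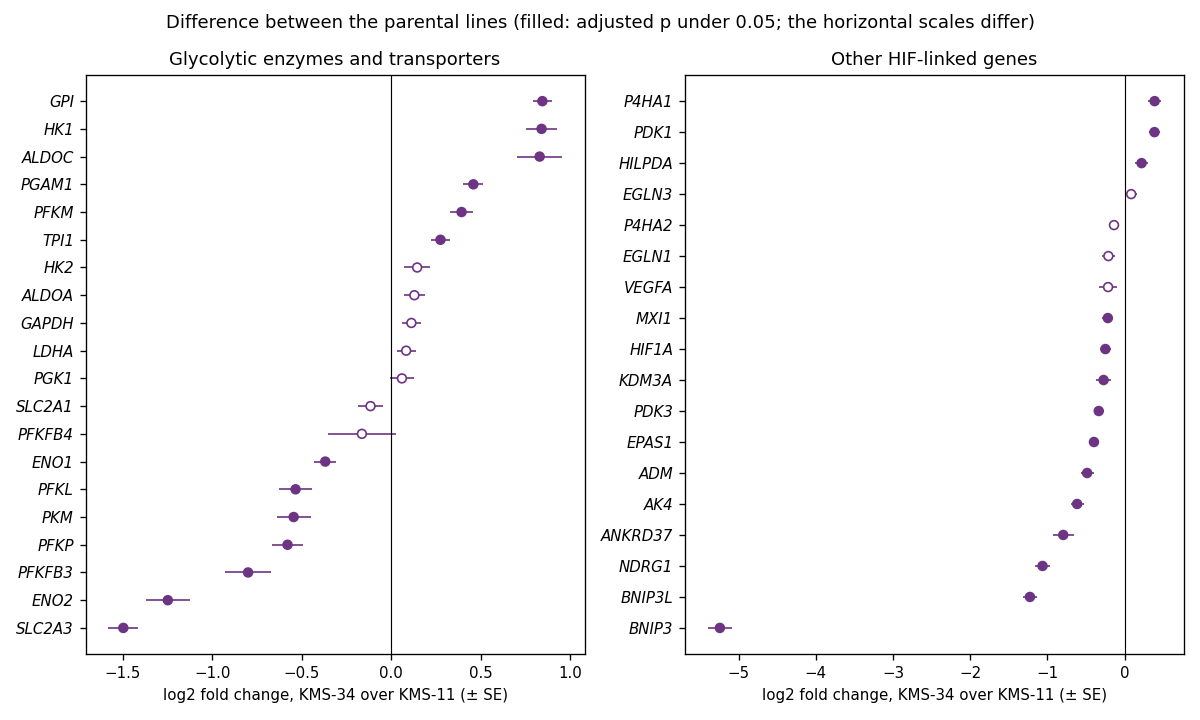
Difference of each measured member between the parental lines, KMS-34 over KMS-11, on the log2 scale with its standard error, ordered by size within each group, with filled points for an adjusted p under 0.05; the horizontal scales of the panels differ. BNIP3 lies at -5.24, far from all other members, and glycolytic genes spread from -1.50 to 0.85.

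Replicate 1 stood low in these genes, least clearly so in KMS-34/Cfz. In all 4 groups, replicate 1 held the lowest value of most of the HIF-linked genes, 13 of 18 in KMS-11/Cfz, 15 of 18 in KMS-11, 10 of 18 in KMS-34/Cfz and 12 of 18 in KMS-34. Over all genes replicate 1 was the lowest in 32.8%, 34.6%, 48.4% and 40.8%. Of the glycolytic genes, 11, 11, 11 and 12 of 20 were lowest there. In KMS-34/Cfz the shares, 55.6% of the HIF-linked and 55% of the glycolytic genes, were near the 48.4% of all genes. The median deviation of the HIF-linked genes from their group mean was -0.10 on replicate 1 of KMS-11/Cfz, -0.06 on that of KMS-11, -0.05 on that of KMS-34/Cfz and -0.04 on that of KMS-34, against -0.02 to 0.001 over all genes. This spread within a group was noticed after the values were seen, and what it comes from was not tested. Without KMS-11/Cfz replicate 1, 1 member passed in KMS-11/Cfz (PDK1), and without KMS-34/Cfz replicate 1, 8 did. The calls over all genes moved as well, to 328 and 1067, against 706 with all arrays.

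**Figure D5:**
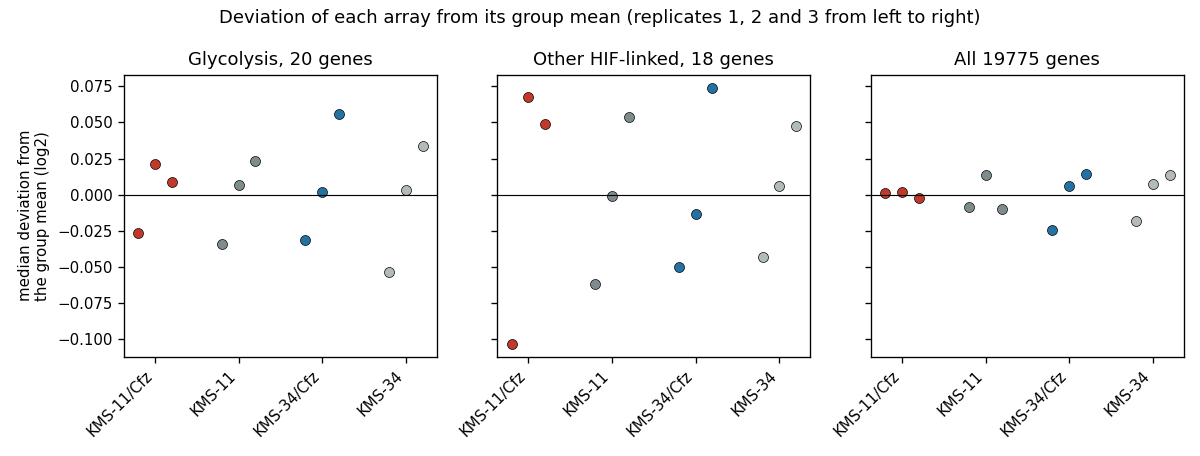
Median deviation of the glycolytic genes, the other HIF-linked genes and all genes from their group mean on each of the 12 arrays, in log2 units, with replicates 1, 2 and 3 from left to right in each group. Replicate 1 is the lowest of its group in both sets of members in all 4 groups, down to -0.10 for the HIF-linked genes of KMS-11/Cfz. In KMS-34/Cfz and KMS-34 it is the lowest over all genes as well.

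Other genes of the same pathways were read as 3 further lists. Of 31 measured genes around glycolysis and pyruvate, 1 rose and 2 fell in KMS-11/Cfz, while in KMS-34/Cfz 0 rose and 2 fell. These are 9.68% and 6.45% of the list, against 3.57% and 10.1% of all genes that passed in either direction, so that in KMS-34/Cfz the share was below that of the whole table. FBP1, the gluconeogenic enzyme that opposes phosphofructokinase, rose by 0.57 ± 0.07 in KMS-11/Cfz (adjusted p = 0.000546) and gave -0.00 ± 0.07 in KMS-34/Cfz. PGM1, which links glycogen to glycolysis, and HKDC1, a hexokinase relative, fell in KMS-11/Cfz (by 0.27 ± 0.07 and 0.29 ± 0.06). TXNIP, an inhibitor of glucose uptake, and PDHB, a subunit of pyruvate dehydrogenase, fell in KMS-34/Cfz (by 0.44 ± 0.10 and 0.35 ± 0.06). Of 15 regulators of HIF, 1 passed in KMS-11/Cfz (6.67%) while 2 did in KMS-34/Cfz (13.3%). The ubiquitin ligase SIAH2 fell in both lines (by 0.28 ± 0.06 and 0.24 ± 0.06), and its relative SIAH1 rose in KMS-34/Cfz (0.27 ± 0.08, adjusted p = 0.0478). With 1 array left out, the SIAH1 call was lost in 11 of 12 fits, the SIAH2 call in 4 for KMS-11/Cfz cells and in 1 for KMS-34/Cfz cells, and those of PGM1 and HKDC1 in 6 and 5.

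Of 32 further targets of low oxygen, 1 rose and 6 fell in KMS-11/Cfz, while in KMS-34/Cfz 2 rose and 4 fell. These are 21.9% and 18.8% of the list, against the same 3.57% and 10.1% of all genes. DDIT4, an inhibitor of mTOR signalling, fell by 0.73 ± 0.11 in KMS-11/Cfz (adjusted p = 0.00164) and gave 0.02 ± 0.11 in KMS-34/Cfz. GBE1, the glycogen branching enzyme, fell by 0.56 ± 0.07 and 0.28 ± 0.07. The circadian repressor BHLHE40 fell by 0.59 ± 0.13 and 0.51 ± 0.13, and both BHLHE40 calls were lost in 4 of 12 fits with 1 array left out. ERO1A, an oxidase of the endoplasmic reticulum, fell by 0.50 ± 0.06 in KMS-11/Cfz, and FAM162A, a mitochondrial protein, fell in both lines, by 0.35 ± 0.07 in KMS-11/Cfz cells and by 0.37 ± 0.07 in KMS-34/Cfz cells. CXCR4, the receptor for the chemokine CXCL12, rose by 0.62 ± 0.06 in KMS-34/Cfz (1.54-fold, adjusted p = 2.49e-05) and by 0.29 ± 0.06 in KMS-11/Cfz (adjusted p = 0.0154), and NOL3, an inhibitor of apoptosis, rose by 0.41 ± 0.08 in KMS-34/Cfz cells. The median change of this list was -0.07 in KMS-11/Cfz cells and -0.06 in KMS-34/Cfz, against 0.002 and -0.01 over all genes.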

How the data were processed

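The deposited table holds log2 values that the authors made from Affymetrix U133 Plus 2.0 arrays with RMA (version not given in the sources used here), 54613 probe sets on 12 arrays, each probe set centred on a constant that is not the median of these arrays (6.43% have a median of 0). No dim probe set could be filtered, and the table has 0 control probe sets. Of the probe sets, 41091 name 1 gene by the platform annotation (41037 in RefSeq), 1801 several and 11721 none. A gene is the mean of the probe sets that name it alone. All arrays entered 1 fit with 4 group means in limma 3.58.1 (lmFit, contrasts.fit, eBayes) under R 4.3.3, with 5 comparisons and Benjamini-Hochberg adjustment over all genes or all probe sets. The fit was tested on simulated data. Motifs were searched with Python 3.11.15 in RefSeq promoters. The number of arrays limits the precision. The members and lists were chosen with earlier results of these data known. By rule, every member that passed in either line and LDHA, P4HA2, HIF1A and EPAS1 are named, with up to 4 passing genes of each further list per line. Members close to the threshold, those that passed in other comparisons and single probe sets were named after their values were seen. Alternatives were a threshold of 0.01, the replicate number as a block, each line alone, aligned medians, cyclic loess and array weights. Others were the probe set of largest variance, and no _x_at or _s_at probe sets for genes that had another kind. Each array was also left out, and, chosen after seeing the data, 3 arrays together.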

Additional observations from a re-analysis of the deposited data

Results flagged for a closer look

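For 9 named genes the change in KMS-34 differed from the change in KMS-11 by limma's test of the difference itself. That test was passed by 6.44% of all genes and by 7.89% of the members, a share near that of all genes. The genes that are not members were drawn from those already named for passing in a line. In their lists, 9.68% of genes around glycolysis and pyruvate, 0% of HIF regulators and 9.38% of further low-oxygen targets passed it. Among the members, the log2 difference was -0.44 for HK1 (adjusted p = 0.0474), 0.45 for ADM (adjusted p = 0.0404) and 0.81 for BNIP3 (adjusted p = 0.0494). With 1 array left out, these calls were lost in 10, 9 and 10 of 12 fits. BNIP3 is the gene whose signal was lower by a log2 change of -5.24 in KMS-34 than in KMS-11 before selection. Among the other genes, FBP1 differed by -0.58 (adjusted p = 0.00446), PGM1 by 0.38 (adjusted p = 0.028), DDIT4 by 0.75 (adjusted p = 0.00974), ERO1A by 0.35 (adjusted p = 0.0232), PDHB by -0.38 (adjusted p = 0.0121) and CXCR4 by 0.33 (adjusted p = 0.0358).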

How the results depend on the processing

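With 3 arrays a group, small changes of centred values could be missed, and a p that missed the threshold does not show that a gene did not change. Of 38 members, 3 passed in KMS-11/Cfz cells, 6 in KMS-34/Cfz cells, 11 in the mean of both lines, 3 in the difference between lines and 27 between the parental lines. At a threshold of 0.01 these were 2, 2, 5 and 0 for the first 4 comparisons. With each line fitted alone 8 passed in KMS-11/Cfz cells and 3 in KMS-34/Cfz cells (PFKM, PFKFB4 and PDK1 were lost, with adjusted p = 0.174, 0.0568 and 0.0806), with array weights 15, 15, 18 and 9 (the weights were taken as the iteration left them), with aligned array medians 7 in the mean, and with the probe set of largest variance 7 in KMS-11/Cfz (PFKM and PFKFB4 were lost in KMS-34/Cfz, with adjusted p = 0.0604 and 0.123). When the 3 arrays least like their groups were dropped at once, a choice made after seeing the data (replicate 3 of KMS-11 and replicate 1 of each KMS-34 group), 5 passed in KMS-11/Cfz, without ALDOC (adjusted p = 0.0679), and PFKFB4 and PDK1 were lost in KMS-34/Cfz (adjusted p = 0.127 and 0.0618). Leaving out each array in turn gave 1 to 8 in KMS-11/Cfz cells (1 when KMS-11/Cfz replicate 1 was missing, 8 when KMS-34/Cfz replicate 1 was and 5 when KMS-34/Cfz replicate 3 was), 2 to 6 in KMS-34/Cfz cells (2 when KMS-34/Cfz replicate 2 was missing and 3 when KMS-34 replicate 2 was), 6 to 11 in the mean, 0 to 3 in the difference and 25 to 28 between the parental lines. Over all genes, 706 passed in KMS-11/Cfz, but 1374 with the line alone, 2034 with array weights and 302 at 0.01, and 1996 passed in KMS-34/Cfz, but 754, 5112 and 1022. In the mean 1552 passed, but 3928 with array weights and 704 at 0.01, and in the difference 1274, but 4062 and 539. Leaving out each array in turn gave 328 to 1067 of all genes in KMS-11/Cfz and 1340 to 2708 in KMS-34/Cfz. All-gene counts are not set beside the member counts for the aligned medians, the probe set of largest variance or the 3 dropped arrays. Whether members gained or lost more calls than other genes in those fits was not tested. Cyclic loess, which fits against an average that is no expression level for centred values, turned DDIT4 in KMS-11/Cfz to 0.13 and the BNIP3 difference to -3.51, ended the BNIP3 call between the parental lines (-2.22, adjusted p = 0.305), and ended ALDOC in KMS-11/Cfz (-0.33, adjusted p = 0.375) and PFKFB4 and NDRG1 in KMS-34/Cfz (adjusted p = 0.0768 and 0.458). HIF1A in KMS-34/Cfz was -0.013 without KMS-34 replicate 3, against 0.062 with it. The causes were not tested.

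The deviations of same-numbered replicates correlated by -0.02, 0.12 and 0.02 in KMS-11 and by 0.52, 0.34 and 0.07 in KMS-34. KMS-34/Cfz replicate 1 gave -0.50 with KMS-34 replicate 2, and KMS-34/Cfz replicate 3 gave -0.46 with KMS-34 replicate 1 and 0.38 with replicate 2. The numbers were not taken to pair the samples in the main fit. Whether replicates of 1 number share an effect, which the KMS-34 values leave possible, was not tested. With the replicate number as a block, 7 members passed in KMS-11/Cfz cells and 9 in KMS-34/Cfz cells, with all calls as reported among them, and the added ones were PFKFB4, SLC2A1, VEGFA and ADM in KMS-11/Cfz and ANKRD37, EGLN1 and MXI1 in KMS-34/Cfz. In the difference between lines 4 passed. The counts of all genes with the block are not given here. Whether the members gained more calls than other genes was not tested. Not every array correlated best with the array of its own number.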
